A study of Mus musculus with 35 samples.

Results

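The MYC, MAX and MXD network was followed here as 10 listed mouse genes: Myc, Mycn and Mycl, their shared partner Max, the antagonists Mxd1, Mxd3, Mxd4, Mxi1 and Mnt, and the large MAX partner Mga. The list was given by gene name and its rule uses no measured value, but the members were chosen with earlier results of these data known. All 10 were found by Ensembl identifier among the 48709 genes counted in 35 RNA-seq libraries, and 9 passed the filter on low counts, which kept 13819 genes. Mycl did not pass and was not tested. The cells were OT-I cytotoxic T lymphocytes (CTLs), which are CD8+ T cells from mice that carry a T-cell receptor transgene specific for ovalbumin. In the study's protocol such cells are primed with antibodies to CD3 and CD28, then expanded in IL-2 for several days, so every group, also the cells at 0 h, had seen IL-2 beforehand. The 7 groups, each of 5 replicates numbered in the labels, were cells at the start (0 h) and cells kept for 24 h in medium of pH 7.4, pH 7 or pH 6.6, either with 200 IU/mL of murine IL-2 or without it. Dead cells were removed on Ficoll before RNA was extracted, so the RNA came from the surviving cells. The age of the mice is not given in the sources used here.

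MYC proteins bind DNA as pairs with MAX at E-boxes, of which CACGTG is the preferred form, and raise transcription of genes for ribosome production, metabolism and growth. MXD proteins, MXI1 and MNT compete for the same MAX and, paired with it, recruit the SIN3 and histone deacetylase corepressor to E-boxes. In T cells, MYC is induced by the antigen receptor and sustained by IL-2, and MXD genes are known for rising as many cell types stop dividing. MYC and MAX family members are controlled to a large extent through protein stability, and RNA was the only product measured here.

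The E-box is the DNA element the whole network reads, so the windows before the members' own start sites were searched for it. RefSeq windows of 300 bases (250 before and 50 after the start, GRCm38.p6) were held for 9 of the 10 members, 11 windows in all. The letters CACGTG, which read the same on both strands, stood in 3 of these 11 windows, and in 7.15% of all 32851 windows. The motif TTCNNNGAA, the core of STAT binding sites and also the same on both strands, stood in 0 of the 11 and in 8.3% of all windows. The 3 members with an E-box were Mxd4, Mnt and Max, which did not move alike in the data described further on. Their sequences are shown 5′ to 3′ on the strand of the gene, up to the start site or to the end of an E-box that spans it, with the E-box in capitals.
Mxd4, chr5:34187711-34187960, minus strand, E-box starting 219 bases before the start site: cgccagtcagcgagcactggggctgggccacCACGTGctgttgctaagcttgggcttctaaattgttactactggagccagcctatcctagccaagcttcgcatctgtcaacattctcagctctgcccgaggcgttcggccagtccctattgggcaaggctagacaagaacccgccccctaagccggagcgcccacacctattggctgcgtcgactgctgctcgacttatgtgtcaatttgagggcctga
Mnt, chr11:74830674-74830923, plus strand, E-box starting 123 bases before the start site: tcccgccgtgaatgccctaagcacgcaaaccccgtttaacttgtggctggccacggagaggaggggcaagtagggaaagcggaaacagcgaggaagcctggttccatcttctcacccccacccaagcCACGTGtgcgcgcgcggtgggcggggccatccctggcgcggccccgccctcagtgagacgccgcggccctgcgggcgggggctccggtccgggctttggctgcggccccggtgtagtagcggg
Max, chr12:76962246-76962498, minus strand, E-box starting 3 bases before the start site: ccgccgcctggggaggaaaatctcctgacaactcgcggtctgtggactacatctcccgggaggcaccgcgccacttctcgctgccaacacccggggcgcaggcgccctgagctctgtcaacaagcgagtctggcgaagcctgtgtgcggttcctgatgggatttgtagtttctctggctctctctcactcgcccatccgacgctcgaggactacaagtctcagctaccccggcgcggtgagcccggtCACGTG
No such match was present in the windows of Mycn, Mycl, Mxd1, Mxd3, Mxi1 and Mga, which says only that these letters are not in those windows. Among the listed E-box target genes described below, 20 of 27 had a window and 6 of the 20 held CACGTG. Start sites here are those of RefSeq, while the gene coordinates given below come from GENCODE M21. By the latter Max begins, on the minus strand, at base 76962201, so its E-box lies further upstream and does not span that start.

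Total counts on genes ranged from 16721319 to 34033340 per library, with a median of 24730020, and the lowest belonged to replicate 1 at pH 6.6 with IL-2. The CD8 T-cell label was borne out by Cd8a and Cd3e, which were present in every library. Cd8a ranged from 673.5 to 1596 CPM (counts scaled to the library size, here with TMM factors) and Cd3e from 373.4 to 630.7. The cytotoxic genes among the CD8 T-cell markers were not steady. Mean Gzmb was 7793 CPM when cells had IL-2 in neutral medium (pH 7.4). Its mean was 844.5 CPM in acid medium (pH 6.6) containing the cytokine, and 124.3 CPM in neutral medium lacking it. Prf1 averaged 379.7, 92.64 and 28.65 CPM in the same order. Cd4 stayed at or below 2.48 CPM in any library, 5 myeloid markers summed to at most 3.98, 3 B-cell markers to at most 0.381 and 2 red-cell markers to at most 0.235. Of the 2 NK-cell markers, Ncr1 stayed at or below 0.0694, while Klrb1c, which activated CD8 T cells can also express, ranged from 8.27 to 94.9. The share of mitochondrial counts was 0.701% to 1.15% in the 10 libraries at pH 6.6 and 1.31% to 2.53% in the others, and its part in the results below was not tested. Each library is a bulk measurement, in which fewer cells of a type or cycle phase and less RNA per cell cannot be told apart.

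Myc, the founding member (chromosome 15, 61985391 to 61990374, plus strand, GRCm38), was highest in the cells at the start and depended strongly on both IL-2 and pH. At 0 h it stood at 241.3, 240.0, 250.3, 178.2 and 259.7 CPM in replicates 1 to 5. After 24 h at pH 7.4 with IL-2 it stood at 148.4, 163.9, 172.8, 141.7 and 173.5 CPM, and at pH 6.6 with IL-2 at 71.8, 45.9, 46.9, 55.6 and 53.9 CPM. The libraries at pH 6.6 all lay below those at pH 7.4, with pH 7 in between at 107.7 to 136.2 CPM. Without IL-2, Myc stood at 17.2, 14.6, 14.7, 13.1 and 21.7 CPM at pH 7.4 and at 26.03, 28.2, 32.5, 20.8 and 22.96 CPM at pH 6.6. These 2 groups overlapped in single libraries, although the acid culture was the higher one in 5 of 5 replicate pairs. With IL-2, pH 6.6 thus lowered Myc by a log2 fold change of -1.55 (standard error (SE) 0.11, adjusted p = 6.35e-14), and without IL-2 the same acid raised it by 0.69 (SE 0.12, adjusted p = 6.38e-06).

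Mycn, best known for its role in neural and embryonic tissue (chromosome 12, 12936093 to 12941914, minus strand), was also highest at 0 h and lowest in the cultures at pH 7.4 and pH 7 without IL-2, and its log2 fold changes at pH 6.6 and with IL-2 at pH 7.4 were larger than those of Myc, a difference between genes that was not tested. With IL-2 it stood at 37.0, 64.4, 58.1, 57.7 and 49.2 CPM at pH 7.4 and at 5.54, 10.3, 7.46, 10.0 and 8.16 CPM at pH 6.6, with no overlap. Without IL-2 it stood at 1.29, 1.88, 2.63, 2.09 and 1.93 CPM at pH 7.4 and at 5.22, 7.51, 7.99, 8.22 and 6.06 CPM at pH 6.6, again with no overlap but in the other direction. The log2 fold change at pH 6.6 was -2.68 with IL-2 (SE 0.11, adjusted p = 1.89e-20) and 1.84 without it (SE 0.13, adjusted p = 6.93e-14). The lowest group, pH 7.4 without IL-2, rested on 40 to 62 reads per library. Per kilobase, on the RPKM scale, Mycn made up 21.5% ± 3.48 (SD, n = 5) of the summed Myc, Mycn and Mycl level at pH 7.4 with IL-2. That share was 11.4% ± 3.52 at pH 6.6 with IL-2, 9.35% ± 2.99 at pH 7.4 without IL-2 and 18.3% ± 3.82 at pH 6.6 without IL-2.

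Mycl (chromosome 4, 122995652 to 123002485, plus strand), which is best known from dendritic cells and small cell lung cancer, was close to absent. It had 0 to 4 reads in each of the 35 libraries and 0 in all 5 libraries at pH 7 without IL-2, where a count of 0 allows up to 3 reads per library.

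Max (chromosome 12, 76937269 to 76962201, minus strand), the partner shared by the other proteins in the network, varied over a narrower range. With IL-2 it stood at 218.8, 165.5, 174.1, 167.1 and 167.0 CPM at pH 7.4 and at 138.9, 124.2, 139.2, 108.0 and 112.6 CPM at pH 6.6. Without IL-2 it stood at 117.7, 100.8, 107.2, 99.6 and 100.4 CPM at pH 7.4 and at 154.1, 137.6, 146.9, 118.4 and 130.0 CPM at pH 6.6. Acid thus brought Max from opposite sides to similar levels: it fell with IL-2 (log2 fold change -0.51, SE 0.08, adjusted p = 1.13e-06) and rose without it (0.39, SE 0.08, adjusted p = 0.000126). The libraries at pH 6.6 and pH 7.4 did not overlap in either setting.

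**Figure D1:**
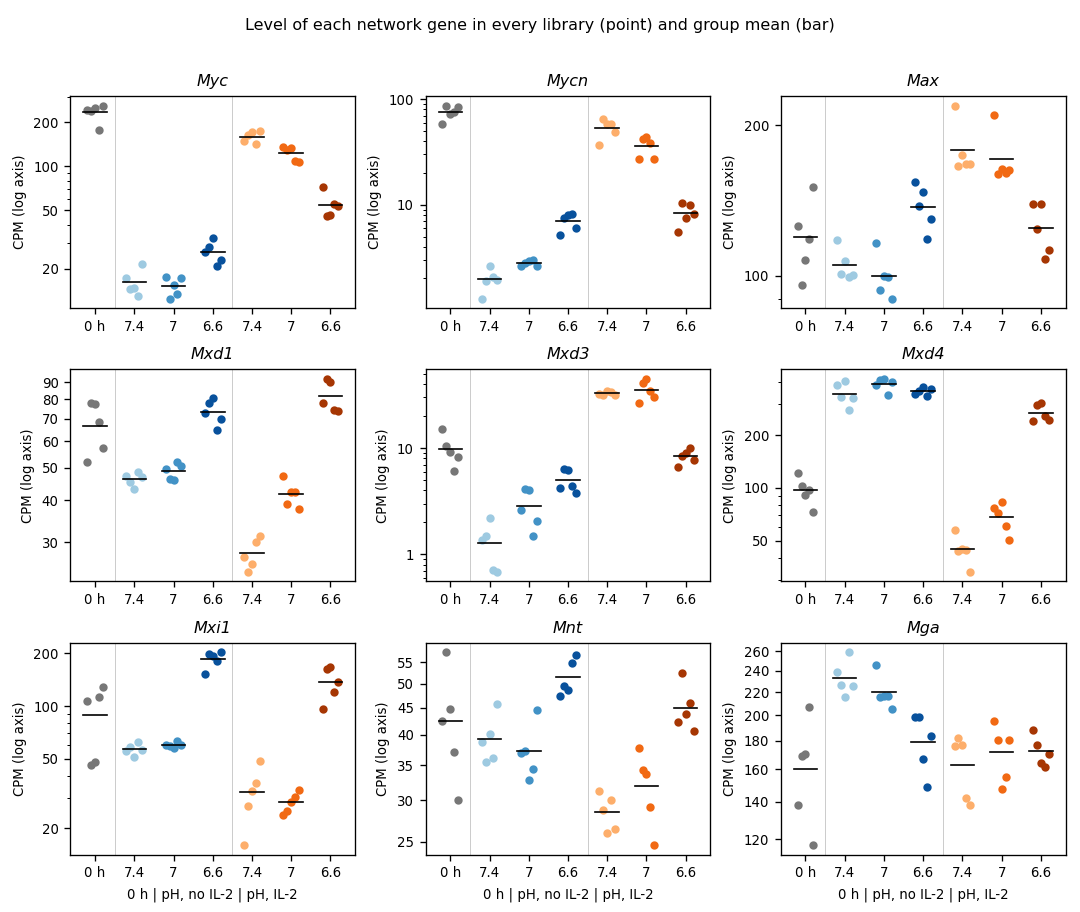
Level of 9 network genes in CPM on a log axis, with 1 panel per gene and a point for each of the 35 libraries; bars are group means, and the groups are 0 h, then pH 7.4, 7 and 6.6 without IL-2 (blue), then the same with IL-2 (orange). Myc, Mycn and Mxd3 are high with IL-2 at pH 7.4 and pH 7, while Mxd4 is low there and high in the other 24 h groups.

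The antagonists did not behave as 1 class, and Mxd4 and Mxd3 went opposite ways. Mxd4 (chromosome 5, 34173883 to 34187720, minus strand), the antagonist linked to resting and differentiated cells, was the antagonist with the largest rise in acid with IL-2. It stood at 57.3, 43.6, 45.1, 44.5 and 33.3 CPM at pH 7.4 with IL-2 and at 240.9, 298.3, 303.5, 256.5 and 242.9 CPM at pH 6.6 with IL-2, a rise of 6.04-fold (log2 fold change 2.59, SE 0.11, adjusted p = 9.34e-20). Without IL-2 it was high at every pH, at 277.7 to 408.3 CPM at pH 7.4 and 334.2 to 375.3 CPM at pH 6.6, and these groups overlapped. The log2 fold change at pH 6.6 without IL-2 was 0.06 (SE 0.10, adjusted p = 0.624), and its sign turned with upper-quartile factors (-0.06) and with library totals alone (-0.09).

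Mxd3 (chromosome 13, 55325168 to 55329823, minus strand), the MXD member known for peaking in S phase of dividing cells, moved in the same direction as Myc in acid, down with IL-2 and up without it. It stood at 32.5, 31.9, 34.8, 33.9 and 31.6 CPM at pH 7.4 with IL-2 and at 6.70, 8.39, 8.93, 9.99 and 7.66 CPM at pH 6.6 with IL-2 (log2 fold change -1.98, SE 0.19, adjusted p = 3.36e-11). Without IL-2 the acid response was turned round, from 1.36, 1.49, 2.201, 0.709 and 0.685 CPM at pH 7.4 to 4.21, 6.40, 6.22, 4.42 and 3.80 CPM at pH 6.6 (1.96, SE 0.24, adjusted p = 1.92e-08). The libraries of the 2 pH values stayed apart with and without IL-2. At pH 7.4 without IL-2 the gene had 16 to 52 reads per library, the fewest of the 9 members tested.

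Mxd1, Mxi1 and Mnt rose in acid whether IL-2 was there or not. Mxi1 (chromosome 19, 53310518 to 53375810, plus strand), an MXD-type repressor that is also known as a target of hypoxia signalling, stood at 16.1, 26.8, 32.8, 36.2 and 48.6 CPM at pH 7.4 with IL-2 and at 96.1, 162.4, 168.0, 121.1 and 137.2 CPM at pH 6.6 with IL-2. Without IL-2 it stood at 51.5 to 62.1 CPM at pH 7.4 and at 153.3 to 202.9 CPM at pH 6.6, so the 2 pH values did not overlap in either setting. The log2 fold change was 2.14 with IL-2 (SE 0.22, adjusted p = 3.27e-10) and 1.71 without it (SE 0.21, adjusted p = 3.73e-08). Mxi1 was also the most scattered member at the start, with 107.4, 45.9, 47.9, 112.1 and 129.0 CPM at 0 h.

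Mxd1 (chromosome 6, 86647042 to 86669161, minus strand), a repressor known for rising as blood cells differentiate, stood at 27.2, 24.5, 25.8, 30.1 and 31.3 CPM at pH 7.4 with IL-2 and at 77.97, 92.0, 90.1, 74.3 and 73.9 CPM at pH 6.6 with IL-2. Its log2 fold change was 1.55 with IL-2 (SE 0.10, adjusted p = 1.60e-15) and 0.66 without it (SE 0.10, adjusted p = 4.05e-07). Mnt (chromosome 11, 74830920 to 74845725, plus strand), a broadly expressed antagonist that is present in dividing and resting cells alike, moved least of the 5 with IL-2. It stood at 25.9 to 31.3 CPM at pH 7.4 with IL-2 and at 40.7 to 52.4 CPM at pH 6.6 with IL-2. Its log2 fold change was 0.66 with IL-2 (SE 0.12, adjusted p = 1.07e-05) and 0.39 without it (SE 0.12, adjusted p = 0.0047), and the latter did not pass with library totals alone (0.24, adjusted p = 0.0905).

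Mga (chromosome 2, 119897228 to 119969581, plus strand), which pairs with MAX inside a variant Polycomb complex, did not pass the test for acid with IL-2. It stood at 176.0, 182.4, 176.7, 142.2 and 138.1 CPM at pH 7.4 and at 188.2, 177.2, 164.2, 161.6 and 170.2 CPM at pH 6.6, groups that overlapped (log2 fold change 0.08, SE 0.10, adjusted p = 0.483). With upper-quartile factors the value was 0.22 and passed (adjusted p = 0.0467). Without IL-2 it fell in acid, from 215.5 to 259.1 CPM at pH 7.4 to 148.8 to 198.4 CPM at pH 6.6 (-0.38, SE 0.10, adjusted p = 0.00185).

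The comparison of pH 6.6 with pH 7.4 asks what acid does to these CTLs, once with the cytokine and once without it. With IL-2, 8 of the 9 members tested passed the threshold, 4 higher and 4 lower, where 76.3% of all genes tested did, 35.4% higher and 40.9% lower. Without IL-2, 8 passed, 7 higher and 1 lower, where 67% of all genes did, 31.6% higher and 35.4% lower. Both counts lie near the shares over all genes, so they are read as a description, and the members are given by direction. Of the 9, 4 were called in opposite directions with and without IL-2 (Myc, Mycn, Max and Mxd3), 3 were higher in acid both times (Mxd1, Mxi1 and Mnt), and Mxd4 and Mga were called once each. The shares of all genes with these joint patterns are not given here, so the patterns are not read as particular to the members. At pH 6.6 with IL-2, Mxd4, Mxi1, Mxd1 and Mnt were all higher than at pH 7.4 in 5 of 5 replicate pairs, and Myc, Mycn, Max and Mxd3 were all lower in 5 of 5.

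**Figure D2:**
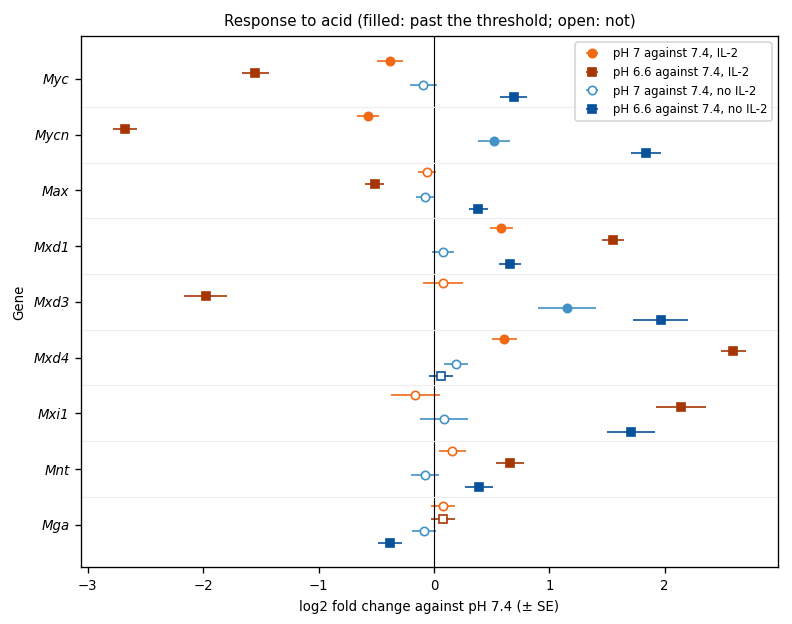
Log2 fold change of each gene against pH 7.4 with its standard error, at pH 7 (circles) and pH 6.6 (squares), with IL-2 (orange and brown) and without (blue); filled points passed an adjusted p of 0.05. At pH 6.6 Myc, Mycn, Max and Mxd3 lie left of 0 with IL-2 and right of 0 without it, while Mxd1, Mxi1 and Mnt lie right of 0 in both.

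Whether acid acted differently with and without IL-2 was tested as an interaction, the difference between the 2 log2 fold changes. For pH 6.6, 7 of the 9 members passed, where 67% of all genes did. The interaction was -2.24 for Myc (SE 0.16, adjusted p = 1.39e-13), -4.52 for Mycn (SE 0.16, adjusted p = 1.48e-20), -0.90 for Max (SE 0.12, adjusted p = 3.68e-08) and -3.94 for Mxd3 (SE 0.30, adjusted p = 5.46e-13). It was 2.54 for Mxd4 (SE 0.15, adjusted p = 6.74e-16), 0.89 for Mxd1 (SE 0.14, adjusted p = 8.82e-07) and 0.46 for Mga (SE 0.15, adjusted p = 0.00659). For Mxi1 it was 0.43 (SE 0.29, adjusted p = 0.197) and for Mnt 0.27 (SE 0.17, adjusted p = 0.160), so no difference between their acid responses with and without IL-2 was detected. Both passed when the libraries were scaled by upper-quartile factors or by totals alone, and then 9 of the 9 did. Those scalings moved the median interaction of all genes by up to 0.26.

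The milder step to pH 7 reached fewer members. With IL-2, 4 of the 9 passed, where 19% of all genes did: Myc (log2 fold change -0.38, SE 0.11, adjusted p = 0.0148) and Mycn (-0.57, SE 0.10, adjusted p = 9.95e-05) fell, and Mxd1 (0.59, SE 0.10, adjusted p = 8.61e-05) and Mxd4 (0.61, SE 0.11, adjusted p = 0.00013) rose. Each of these 4 moved the same way in 5 of 5 replicate pairs, though only for Myc and Mxd1 did the libraries of the 2 groups stay apart. The call for Myc was lost without replicate 5 (-0.31, adjusted p = 0.0528). Mxi1, which rose with the lower step to pH 6.6, gave -0.16 at pH 7 (SE 0.21, adjusted p = 0.652), and Mxd3, which fell with that step, gave 0.08 (SE 0.17, adjusted p = 0.801). From pH 7 to pH 6.6 with IL-2, 8 of the 9 passed, where 72.4% of all genes did, with Mga again the exception. The change over this lower step was 2.30 for Mxi1 (SE 0.22, adjusted p = 1.03e-10), -2.06 for Mxd3 (SE 0.19, adjusted p = 1.89e-11) and -1.17 for Myc (SE 0.11, adjusted p = 6.44e-11).

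Without IL-2, pH 7 differed little from pH 7.4. There 2 of the 9 members passed, where 1.68% of all genes did: Mxd3 (1.16, SE 0.25, adjusted p = 0.00813), at 1.48 to 4.15 CPM at pH 7, and Mycn (0.52, SE 0.14, adjusted p = 0.0431), at 2.60 to 2.99 CPM. Both are low in these groups and the ranges of their libraries overlapped those at pH 7.4, although both were higher in 5 of 5 replicate pairs. In the fit with no replicate block neither passed (Mxd3 1.17, adjusted p = 0.0533, and Mycn 0.52, adjusted p = 0.576), and 0 of the 9 passed without replicate 2 or without replicate 5. The interaction of pH 7 and IL-2 was called for 3 members, where 4.79% of all genes passed: Mycn (-1.09, SE 0.17, adjusted p = 0.000538), Mxd3 (-1.08, SE 0.31, adjusted p = 0.036) and Mxd1 (0.51, SE 0.14, adjusted p = 0.0266). With no replicate block it was 2 members, Mxd3 being lost (-1.06, adjusted p = 0.128). Without replicate 2, 3 or 4 it was 1 member, Mycn, the calls of Mxd1 and Mxd3 being lost. Without replicate 1 the call of Mxd1 was lost, and without replicate 5 that of Mxd3.

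The response to IL-2 itself shows how far each member followed the cytokine at each pH. At pH 7.4 all 9 members tested passed, where 80.4% of all genes did. Mycn (27.1-fold, log2 fold change 4.76, SE 0.12, adjusted p = 2.03e-25), Mxd3 (26.1-fold, 4.71, SE 0.23, adjusted p = 1.14e-18), Myc (9.92-fold, 3.31, SE 0.12, adjusted p = 8.23e-22) and Max (1.69-fold, 0.76, SE 0.08, adjusted p = 4.59e-10) were higher with IL-2. Mxd4 was lower by the widest margin (7.71-fold, -2.95, SE 0.11, adjusted p = 1.16e-21), followed by Mxi1 (-0.86), Mxd1 (-0.74), Mga (-0.52) and Mnt (-0.47). The libraries with and without IL-2 were apart for each of the 9, and the share of all genes with libraries apart is not given here.

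At pH 7 the IL-2 response had 8 of the 9 members, where 77.2% of all genes passed. Mnt gave -0.23 (SE 0.12, adjusted p = 0.0856) and passed with upper-quartile factors (-0.41, adjusted p = 0.00258), with library totals alone (-0.34, adjusted p = 0.0136), with the stricter filter, and without replicate 1 or 2. The Mxd1 call at pH 7 (-0.23, adjusted p = 0.0304) was lost with the looser filter and without replicate 3, 4 or 5 (-0.17, adjusted p = 0.156, without replicate 5). At pH 6.6 only 3 members passed, where 23.7% of all genes did. Myc was still higher with IL-2 (2.10-fold, 1.07, SE 0.12, adjusted p = 1.73e-08) with libraries apart, Mxd3 was higher by 0.76 (SE 0.20, adjusted p = 0.00505) and Mxd4 lower by a log2 fold change of -0.41 (SE 0.10, adjusted p = 0.00328). Mycn, which IL-2 raised most at pH 7.4, gave 0.25 at pH 6.6 (SE 0.11, adjusted p = 0.105), from 7.0 ± 1.31 to 8.30 ± 1.96 CPM (SD, n = 5). The Mycn value passed with library totals alone and without replicate 3. When only the 10 libraries at pH 6.6 were fitted, calls rose over all genes (5369, against 3278) and 6 members passed, with Mycn (0.28, adjusted p = 0.0351), Mxd1 (0.19, adjusted p = 0.00336) and Mxi1 (-0.42, adjusted p = 3.96e-05) added.

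**Figure D3:**
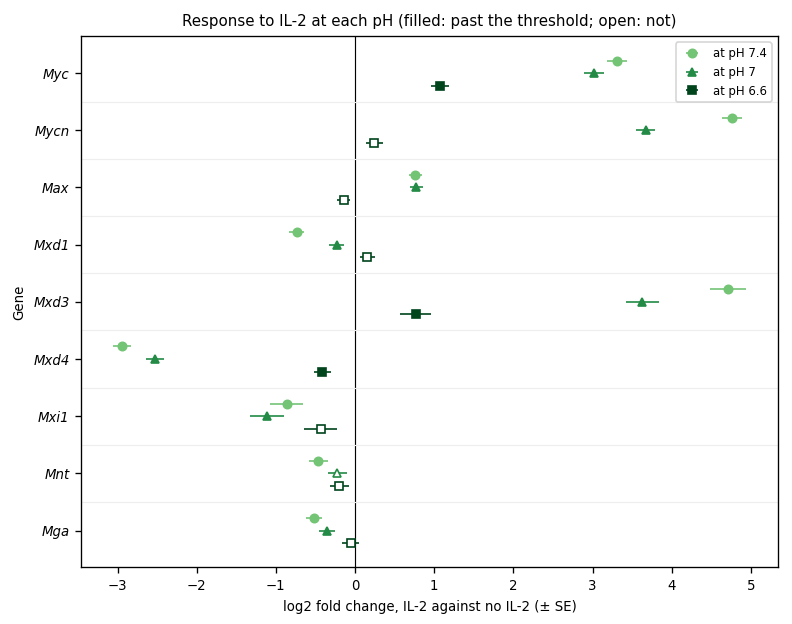
Log2 fold change of IL-2 against no IL-2 with its standard error for each gene at pH 7.4 (circles), pH 7 (triangles) and pH 6.6 (squares); filled points passed an adjusted p of 0.05. Mycn and Mxd3 lie above 4.5 at pH 7.4 and below 1 at pH 6.6, and Mxd4 moves from -2.95 to -0.41.

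Cells in acid with IL-2 can be set against cells that lacked IL-2 at neutral pH, which asks how far acid resembles loss of the cytokine. Of the 9 members, 8 differed between these groups, where 64.4% of all genes did. Myc was 3.39-fold (1.76, SE 0.12, adjusted p = 3.58e-14), Mycn 4.24-fold (2.08, SE 0.13, adjusted p = 2.86e-15) and Mxd3 6.63-fold (2.73, SE 0.23, adjusted p = 1.05e-11) higher in acid with IL-2. Mxi1 (1.27, SE 0.21, adjusted p = 5.19e-06) and Mxd1 (0.81, SE 0.10, adjusted p = 8.68e-09) were also higher there, with libraries apart, and Max was higher by 0.24 (SE 0.08, adjusted p = 0.0103). Mxd4 (-0.35, SE 0.10, adjusted p = 0.00348) and Mga (-0.44, SE 0.10, adjusted p = 0.00051) were lower. Mnt gave 0.19 (SE 0.12, adjusted p = 0.155) and passed without replicate 5 (0.30, adjusted p = 0.0105). The call for Max was lost with upper-quartile factors (0.16, adjusted p = 0.0841) and with library totals alone (0.16, adjusted p = 0.0569). Acid with IL-2 left the antagonist Mxd4 at 268.4 ± 30.3 CPM (SD, n = 5), against the 344.7 ± 52.0 CPM of cytokine loss, and Myc at 54.8 ± 10.4 CPM against 16.2 ± 3.36 CPM.

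Myc and Mycn were below their 0 h levels in each of the 4 cultures set against 0 h, those at pH 7.4 and pH 6.6. At pH 7.4 with IL-2, 8 of the 9 members differed from 0 h, where 59.9% of all genes did. Myc was lower by a log2 fold change of -0.54 (SE 0.11, adjusted p = 9.87e-05) and Mycn by -0.52 (SE 0.10, adjusted p = 2.19e-05), as were Mxi1 (-1.48), Mxd1 (-1.26), Mxd4 (-1.12) and Mnt (-0.57), while Mxd3 (1.76, SE 0.19, adjusted p = 1.10e-09) and Max (0.57, SE 0.08, adjusted p = 4.30e-07) were higher. At pH 7.4 without IL-2, 8 differed, where 75.2% of all genes did. Mycn was lower by 38.9-fold (-5.28, SE 0.12, adjusted p = 5.24e-26), Myc by 14.4-fold (-3.85, SE 0.13, adjusted p = 1.69e-22) and Mxd3 by 7.71-fold (-2.95, SE 0.23, adjusted p = 5.23e-13), while Mxd4 was higher by 3.55-fold (1.83, SE 0.11, adjusted p = 2.33e-16). Of the other calls there, Max (-0.19, SE 0.08, adjusted p = 0.0384) was lost under most alternatives, the DESeq2 fit among them (adjusted p = 0.051). Mxi1 (-0.62, SE 0.21, adjusted p = 0.00926) was lower in only 3 of 5 pairs and lost its call without replicate 1, 4 or 5 (lowest adjusted p = 0.0543) and in the fit of only the groups compared.

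At pH 6.6 with IL-2, 5 members differed from 0 h, where 68.5% of all genes did: Myc (-2.09, SE 0.12, adjusted p = 2.39e-16) and Mycn (-3.20, SE 0.11, adjusted p = 1.75e-21) were lower, and Mxd4 (1.48, SE 0.11, adjusted p = 8.83e-14), Mxi1 (0.66, SE 0.21, adjusted p = 0.00643) and Mxd1 (0.30, SE 0.10, adjusted p = 0.0069) were higher. Mxd3 gave -0.22 (SE 0.19, adjusted p = 0.319), and its sign turned without replicate 1 (0.12), while it passed without replicate 4 (-0.45, adjusted p = 0.0364). The Mxi1 call was lost without replicate 2 (0.47, adjusted p = 0.0582) or 3 (0.43, adjusted p = 0.0901) and in the fit of only the groups compared. Max passed without replicate 5 (0.20, adjusted p = 0.0191) and Mga without replicate 4 (0.23, adjusted p = 0.0349). At pH 6.6 without IL-2, 7 members differed from 0 h, where 75.1% of all genes did. Mxd4 (1.89, SE 0.11, adjusted p = 9.74e-17) and Mxi1 (1.09, SE 0.21, adjusted p = 2.67e-05) were higher, and Mycn (-3.44, SE 0.11, adjusted p = 1.31e-22), Myc (-3.16, SE 0.12, adjusted p = 8.37e-21) and Mxd3 (-0.98, SE 0.20, adjusted p = 4.58e-05) lower. The calls for Max (0.20, adjusted p = 0.0307) and Mnt (0.29, adjusted p = 0.0283) were lost under several alternatives, and Mga passed without replicate 4 (0.33, adjusted p = 0.00364).

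Since MYC and its antagonists compete for MAX, the summed level of Myc, Mycn and Mycl was set against that of Mxd1, Mxd3, Mxd4, Mxi1 and Mnt in each library. The values are log2 ratios of summed RPKM, which divides by exon length, and are a description with no test. At 0 h the balance was 1.21 ± 0.25 (SD, n = 5) and at pH 7.4 with IL-2 1.14 ± 0.16, and activator RNA exceeded antagonist RNA on this scale in every library of both groups. On the CPM scale, without length, the mean at 0 h was 0.0202 and 2 of the 5 libraries there lay below 0. With IL-2 it was 0.49 ± 0.07 at pH 7 and -1.76 ± 0.38 at pH 6.6, where it ranged from -2.15 to -1.22. Without IL-2 it was -3.31 ± 0.24 at pH 7.4, -3.47 ± 0.18 at pH 7 and -2.99 ± 0.19 at pH 6.6. With IL-2 the 3 pH values gave separate ranges in the order of their pH, whereas without IL-2 the range at pH 7.4 overlapped both others, and pH 6.6 lay above pH 7. The order of the means across the groups with IL-2 did not depend on the length correction, but the sign at pH 7 with IL-2 did: it was -0.37 on the CPM scale and -0.20 with mean transcript length.

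Both terms of the ratio moved. Summed activator RPKM went from 75.1 ± 6.87 (SD, n = 5) at pH 7.4 with IL-2 to 22.7 ± 3.44 at pH 6.6, and summed antagonist RPKM from 33.97 ± 1.25 to 76.5 ± 9.59. The make-up of the antagonists changed as well. At pH 7.4 with IL-2, Mxd3 was 41.0% ± 1.69 of antagonist RPKM and Mxd4 15.6% ± 3.16. That order rests on the length correction: in CPM, without length, Mxd4 was higher than Mxd3 there (44.8 ± 8.51 against 32.9 ± 1.35). At pH 6.6 with IL-2, Mxd3 was 4.62% ± 0.68 and Mxd4 41.4% ± 1.25, with Mxi1 at 26.02% ± 2.997. At pH 7.4 without IL-2, Mxd4 alone was 62.7% ± 3.95. Acid without IL-2 lowered that to 45.3% ± 1.37 and took Mxi1 from 13.01% ± 2.08 to 29.3% ± 1.74. The share of Mxi1 was thus larger in acid with IL-2, against 13.8% ± 4.90 at neutral pH, as well as without it.

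**Figure D4:**
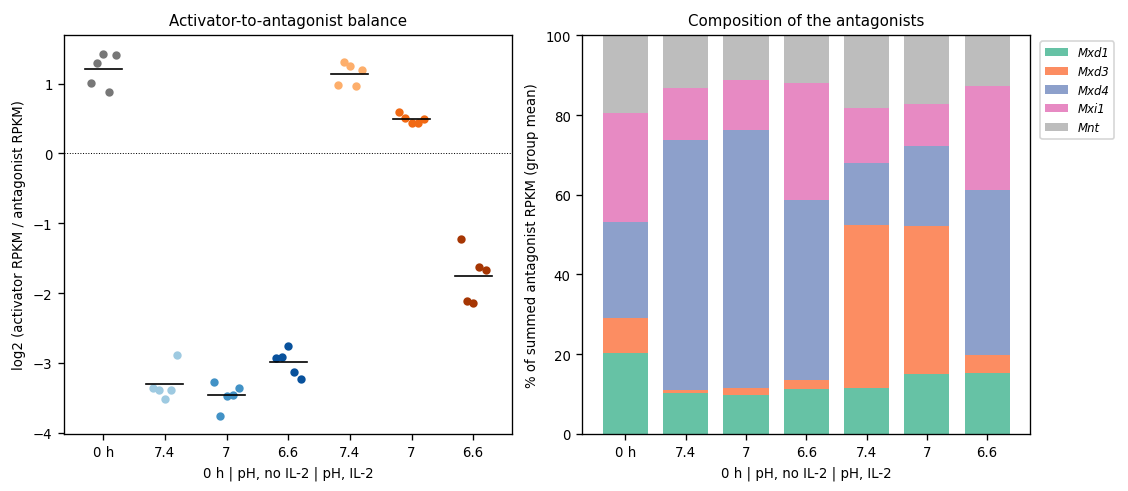
Left, log2 ratio of summed activator RPKM (Myc, Mycn, Mycl) to summed antagonist RPKM (Mxd1, Mxd3, Mxd4, Mxi1, Mnt) in each library, with group means as bars; right, mean percentage of summed antagonist RPKM held by each antagonist per group. The balance falls from 1.14 at pH 7.4 to -1.76 at pH 6.6 with IL-2, and Mxd3 goes from 41.0% to 4.62% of antagonist RPKM, a share that depends on the length correction.

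The genes that work with the network or are read by it were taken from lists of general knowledge, and are described by counts beside those of all genes, without a set test. The lists were chosen with earlier results of these data known, so their counts are a description and not independent evidence. In acid with IL-2, 35.4% of all genes tested were higher, 40.9% were lower and the median log2 fold change was -0.07. Of 27 genes known to be MYC targets through E-boxes, all 27 were lower, with a median of -1.85. The widest falls were in Srm, which encodes spermidine synthase (-3.55, SE 0.17, adjusted p = 3.88e-18), and in Tfrc, which encodes the transferrin receptor (-3.17, SE 0.14, adjusted p = 1.17e-19). Without IL-2 the same 27 split into 9 higher, 7 lower and 11 not called at pH 6.6, near the 31.6% higher and 35.4% lower of all genes, with a median of 0.02 that turned to -0.10 with upper-quartile factors and -0.13 with library totals alone, although Myc and Mycn rose there. With IL-2 at pH 7, 18 of the 27 were lower and 0 higher (median -0.37), where 9.83% of all genes were lower. In the IL-2 response all 27 were higher at pH 7.4 (median 2.56) and 21 of 27 at pH 6.6 (median 0.49), where 39.3% and 13.2% of all genes were higher.

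Of 6 genes known to be repressed by MYC, 4 were higher at pH 6.6 with IL-2 and 1 was lower, with a median of 1.48. Gadd45b, a stress-inducible gene, rose by 2.84 (SE 0.20, adjusted p = 2.45e-14) and Cdkn1b, which encodes the cell cycle inhibitor p27, by 2.62 (SE 0.19, adjusted p = 7.62e-14), whereas Cdkn2b, another cell cycle inhibitor, fell (-0.90, SE 0.12, adjusted p = 4.83e-08). Without IL-2, 4 were higher and 1 lower, or 3 and 1 with upper-quartile factors or library totals alone. The median without IL-2 was 0.67, where 31.6% of all genes were higher and 35.4% lower. Cdkn1b gave 0.14 there (SE 0.18, adjusted p = 0.480), at 578 ± 68.4 CPM (SD, n = 5) at pH 7.4 and 638 ± 88.8 at pH 6.6.

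The 16 MYC cofactors did not move as 1 group, with 10 lower and 5 higher at pH 6.6 with IL-2 (median -0.44). Ruvbl1 (-2.21, SE 0.10, adjusted p = 5.65e-19) and Ruvbl2 (-1.96, SE 0.09, adjusted p = 1.28e-18), the paired ATPases of several chromatin remodellers, fell most. Trrap, the scaffold that ties MYC to histone acetyltransferases, rose (1.12, SE 0.12, adjusted p = 2.13e-10), as did Ccnt1, the cyclin of the elongation factor P-TEFb (0.53, SE 0.11, adjusted p = 4.58e-05). Without IL-2, 9 of the 16 were higher and 3 lower (median 0.27), where 31.6% and 35.4% of all genes were, and with library totals alone 7 were higher and 5 lower.

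Of 15 genes of the SIN3 and histone deacetylase corepressor, which the MXD proteins recruit, 7 were higher and 6 lower at pH 6.6 with IL-2 (median 0.07). Rbbp7 (-1.47, SE 0.09, adjusted p = 1.69e-16) and Hdac2 (-1.13, SE 0.09, adjusted p = 9.67e-13), a histone chaperone and a deacetylase of the core, fell most. Ing2 (1.13, SE 0.15, adjusted p = 7.21e-08) and Arid4b (1.06, SE 0.10, adjusted p = 2.26e-11), which are accessory subunits, rose most. Without IL-2, 12 of the 15 were higher and 2 lower (median 0.47), where 31.6% and 35.4% of all genes were, with 8 higher under upper-quartile factors or library totals alone. Of 10 genes of the Polycomb complex that holds MGA, 6 were lower and 2 higher with IL-2 (median -0.42), led by Tfdp1 (-2.43, SE 0.09, adjusted p = 2.76e-21) and E2f6 (-1.70, SE 0.08, adjusted p = 1.17e-18), the DNA-binding pair, while Rnf2, the ubiquitin ligase, (0.96, SE 0.10, adjusted p = 3.37e-10) and Tfdp2 (0.71, SE 0.10, adjusted p = 8.78e-08) rose. Without IL-2 the split was 4 higher and 5 lower (median -0.11). In the parallel MLX branch, whose proteins also bind E-boxes and respond to glucose, Mlxip rose (0.98, SE 0.11, adjusted p = 3.99e-10) and Mlx fell (-0.85, SE 0.07, adjusted p = 2.35e-13) with IL-2, and Mlxipl had at most 12 reads in any library and was not tested. Without IL-2, Mlx was lower (-0.18, adjusted p = 0.0188), a call lost with RLE factors, the looser filter, DESeq2 and without replicate 3 or 5, and Mlxip gave 0.15 (adjusted p = 0.213).

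**Figure D5:**
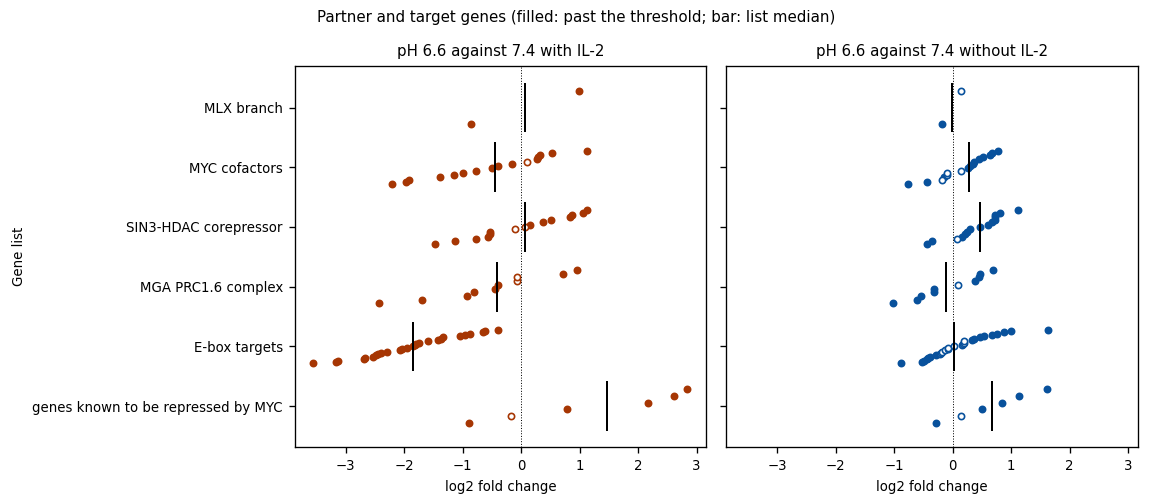
Log2 fold change of pH 6.6 against pH 7.4 with IL-2 (left) and without (right) for each tested gene of 6 lists of partners and targets; filled points passed an adjusted p of 0.05 and the vertical bars are list medians. All 27 E-box targets lie left of 0 with IL-2 and spread around 0 without it.

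To describe which genes ran with each member, Pearson correlations of log2 CPM were taken over the 35 libraries, among 9220 well expressed genes (mean log2 CPM 3 or more). The libraries share 7 groups and 5 replicate numbers, so the values mostly describe differences between groups. They are given with the same correlation after group means were removed. That step leaves in what libraries of the same replicate number share, so the 35 libraries are not independent there either. Closest to Mxd3 were Stmn1 (0.991, within groups 0.886), Cdca3 (0.989, 0.886) and Espl1 (0.988, 0.928), genes of the mitotic spindle and of division. Closest to Mxd4 were Slc12a7 (0.992, 0.842), Acss1 (0.990, 0.777) and Thra (0.989, 0.701). Closest to Myc were Jarid2 (0.981, 0.137), Mthfd1l (0.980, 0.426) and Myl10 (0.977, 0.340), and closest to Mycn Mthfd1l (0.978, 0.051), Jarid2 (0.978, 0.245) and Mif (0.974, 0.326). These 2 members therefore had the same leading pair of genes, with little of the likeness left within groups.

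Closest to Mxi1 were Smox (0.965, 0.775), Npepps (0.964, 0.928) and Zfp954 (0.963, 0.708), and closest to Mga were Usp34 (0.947, 0.914), Son (0.921, 0.837) and Pign (0.911, 0.848). For Max the 3 were Trim59 (0.920, 0.815), Vrk1 (0.919, 0.658) and Cep57 (0.913, 0.558), for Mnt Klc2 (0.910, 0.833), Mef2d (0.906, 0.814) and Asb6 (0.904, 0.857), and for Mxd1 Gpr146 (0.898, -0.009), Tmem38b (0.893, 0.151) and Fam84b (0.884, 0.720). Among the members themselves, Myc and Mycn gave 0.962 over the 35 libraries and -0.174 within groups, and Myc and Mxd4 gave -0.880 and 0.004. Mxd1 and Mnt gave 0.807 and 0.395.

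Some members share bases with genes on the other strand. Of the exon bases of Mxd4, 6.06% lie opposite Gm42846, of those of Mxd3 4.43% lie opposite Prelid1, and of those of Mxi1 2.84% lie opposite Gm10197. The library kit keeps strand, but the strand setting of the counting is not given in the sources used here, so reads in these stretches cannot be assigned with certainty.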

How the data were processed

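RNA-seq counts were analysed for 35 libraries in 7 groups of 5, grouped by their labels. The authors deposited raw read counts per Ensembl gene for each library, made per the submitters' processing notes with cutadapt 1.8, STAR 2.5.2b and HTSeq 0.6.1 on GRCm38. The libraries were stranded mRNA libraries. The annotation release, read length and strand setting of the counting are not given in the sources used here. Rows that name no gene (no feature, ambiguous, multiply aligned) were left out of library sizes. Of all counted alignments, reads in no feature came to 2.58% to 11.1% and multiply aligned reads to 32.8% to 48.3%. Symbols and coordinates came from GENCODE M21, which matched 48349 of 48709 identifiers.

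Counts were fitted with edgeR 4.0.16 in R 4.3.3: TMM factors, filterByExpr with a minimum of 10 counts, a robust quasi-likelihood fit over all 35 libraries, blocked on replicate number, and two-sided tests with Benjamini-Hochberg adjustment over the 13819 genes tested, called under 0.05. CPM and RPKM used TMM-scaled library sizes, and RPKM the exon union length. Depth limits precision by counting error only for low genes such as Mycl. The pairing came from the replicate numbers in the labels: deviations from group means correlated over 0.1 in 96 of 105 same-numbered pairs of libraries, with 0.183 to 0.395 for pH 6.6 with pH 7.4 in the presence of the cytokine. No 2 libraries of a group agreed within sampling noise. Nothing says how the 5 biological replicates were separated, so p-values measure the spread between these cultures.

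Genes named were the 10 members, in each list the 2 called genes that rose most and the 2 that fell most in acid with IL-2 (mean log2 CPM 1 or more), and the 3 genes most correlated with each member (mean log2 CPM 3 or more). The members and lists were chosen with earlier results of these data known. Alternatives were RLE and upper-quartile factors, library totals alone, DESeq2 1.42.0, a looser and a stricter filter, a fit of only the groups compared, no replicate block, and leaving out each replicate.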

Additional observations from a re-analysis of the deposited data

Results flagged for a closer look

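In 4 of the 63 combinations of member and group checked, 1 library stood far from the other 4 for the spread of its group. That is about the number that chance gives at 1 in 20 if the combinations are independent. Their independence was not tested, and replicate 1 recurs among them. Myc in replicate 4 at 0 h was at 178.2 CPM, with the next library at 240.0 CPM. Max in replicate 1 was the highest of its group both at pH 7.4 with IL-2 (218.8 CPM, next 174.1) and at pH 7 with IL-2 (209.7 CPM, next 163.2). Mga in replicate 1 at pH 7 without IL-2 was at 246.3 CPM, with the next at 216.4 CPM. Leaving out replicate 1 or replicate 4 changed no call of a member for pH 6.6 against 7.4, with or without IL-2.

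The effect of pH 6.6 differed between cultures with and without IL-2, by the interaction test, for 7 members. The difference between the 2 log2 fold changes was -2.24 for Myc, -4.52 for Mycn, -0.90 for Max, -3.94 for Mxd3, 0.89 for Mxd1, 2.54 for Mxd4 and 0.46 for Mga. The effect of pH 7 differed in the same way for Mycn (-1.09), Mxd3 (-1.08) and Mxd1 (0.51). Of these 10, those of Mxd1 and Mxd3 at pH 7 lost the threshold when single replicates were left out.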

How the results depend on the processing

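Of 1755 recomputed values of single members, 1656 kept their direction and their side of the threshold, 59 lost it, 23 gained it and 17 turned sign. For the comparisons of pH 6.6 with pH 7.4, 116 of 117 kept both with IL-2 and 114 of 117 without, as did 117 of 117 for IL-2 at pH 7.4. Upper-quartile factors moved the median over all genes by -0.22 (log2) in the IL-2 response at pH 7.4 and by 0.26 in the interaction at pH 6.6. The 17 that turned sign were log2 values that had not passed. Mga turned to -0.133 with upper-quartile factors and -0.0461 with library totals alone for pH 7.4 with IL-2 against 0 h, to 0.0134 with library totals alone for IL-2 at pH 6.6, and to -0.0173 with the looser filter for the step from pH 7 to pH 6.6. Mxd4 at pH 6.6 without IL-2 turned to -0.0604 with upper-quartile factors and -0.0940 with library totals alone. When 1 replicate was left out, Mga ran from -0.0673 to 0.177 for pH 7.4 with IL-2 against 0 h, from -0.0937 to 0.00978 for IL-2 at pH 6.6, from -0.0346 to 0.0934 for the step from pH 7 to pH 6.6 and from -0.000857 to 0.163 for the step to pH 7 with IL-2. Max ran from -0.0032 to 0.201 for pH 6.6 with IL-2 against 0 h and from -0.00408 to 0.0349 for the interaction at pH 7. Mnt ran from -0.266 to 0.111 for pH 7.4 without IL-2 against 0 h, and Mxd3 from -0.451 to 0.121 for pH 6.6 with IL-2 against 0 h.

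Counts of members called moved by over 1.5 times in 3 comparisons. For IL-2 at pH 6.6, 6 members passed in the fit of only the groups compared. For the interaction at pH 7, 1 to 2 members passed when 1 replicate was left out. For pH 7 against pH 7.4 without IL-2, 1 passed with the looser filter and 0 to 2 when 1 replicate was left out. With no replicate block, and so no pairing of the cultures, 0 of the 9 passed in that comparison and 8 of 9 still passed for pH 6.6 against pH 7.4 with and without IL-2.

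The activator-to-antagonist balance depended on how gene length entered it. On the CPM scale it was 0.0202 at 0 h, 0.36, -0.37 and -3.10 at pH 7.4, 7 and 6.6 with IL-2, and -4.76, -4.91 and -4.35 without. With mean transcript length it was 0.29 at 0 h, 0.47, -0.20 and -2.73 with IL-2, and -4.28, -4.44 and -3.98 without. With Mga among the antagonists it was 0.92 at 0 h, 0.75 at pH 7.4 and 0.13 at pH 7 with IL-2, and -3.62 and -3.73 at pH 7.4 and pH 7 without.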
